A study of Mus musculus with 5 samples.

Results

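The 7 loci described here hold genes that act early in the formation of the gonad: Emx2, Lhx9, Cbx2, Gata4, Nr5a1, Sox9 and Amhr2. Members were the WT1 peaks that overlapped a fixed mm9 window of 100 to 160 kb around each gene. That choice used positions and no measured value, but earlier results of these data were known when it was made. The windows were chr19:59480000-59590000 (Emx2), chr1:140670000-140800000 (Lhx9), chr11:118840000-118940000 (Cbx2), chr14:63760000-63920000 (Gata4), chr2:38500000-38620000 (Nr5a1), chr11:112590000-112700000 (Sox9) and chr15:102230000-102330000 (Amhr2). The windows held 373 of the 622792 peaks listed in 4 libraries. M15 replicate 1 had 13 of its 6440 peaks there, M15 replicate 2 had 63 of 60925, KTS-minus replicate 1 had 176 of 310999 and KTS-minus replicate 2 had 121 of 244428.

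The peaks came from CUT&RUN, in which an antibody guides a nuclease to a protein on chromatin and the released DNA is sequenced. All libraries were made with 1 WT1 antibody from M15 cells, an epithelial line of the mouse mesonephros that carries large T of polyoma virus. The 2 M15 libraries came from the line without the KTS edit, and the 2 KTS-minus libraries from an M15 line whose genome was edited for the KTS isoforms of WT1. Large T is present in both lines, and no drug, time course or animal age was part of these groups. The labels do not say which isoform the edited cells still make, whether the edited line was 1 clone, or whether replicates were separate cultures. A library with an IgG control antibody from M15 cells was not analysed here. The lists named no genes and no cell type marker could be read from them, so the identity of the line rests on its label.

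WT1 is a zinc-finger transcription factor that the coelomic epithelium needs in order to form the gonad. Splicing adds or leaves out lysine, threonine and serine (KTS) between the last zinc fingers, and the form without KTS is the one best known for binding specific DNA sequences. In the early gonad WT1 works beside EMX2, LHX9, CBX2 and GATA4 upstream of NR5A1, the nuclear receptor that switches on steroid-making genes. SOX9 then drives the formation of Sertoli cells, and AMHR2 is the receptor through which anti-Müllerian hormone removes the Müllerian duct.

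Proximal promoter sequences are shown for the 3 member genes matched by symbol in the promoter table from RefSeq, out of 7, so that the DNA just before their starts can be read beside the peak data. Each run gives the 250 bases before an annotated start, 5′ to 3′ on the gene's strand, in GRCm38.p6. That build differs from the mm9 build of the peaks, so no peak was placed on these sequences. They lie at chr15:102445117-102445366 (plus strand, Amhr2), chr19:59458440-59458689 (plus strand, Emx2) and chr1:138842445-138842694 (minus strand, Lhx9).
Amhr2: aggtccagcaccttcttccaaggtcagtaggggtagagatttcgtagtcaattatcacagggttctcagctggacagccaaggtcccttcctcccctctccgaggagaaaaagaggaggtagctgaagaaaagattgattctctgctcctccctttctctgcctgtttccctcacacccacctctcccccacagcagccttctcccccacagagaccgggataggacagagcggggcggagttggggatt
Emx2: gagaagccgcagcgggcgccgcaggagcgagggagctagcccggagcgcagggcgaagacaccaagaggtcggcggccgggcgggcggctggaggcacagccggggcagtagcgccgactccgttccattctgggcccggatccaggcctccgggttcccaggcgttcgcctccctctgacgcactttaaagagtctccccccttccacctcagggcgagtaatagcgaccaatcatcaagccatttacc
Lhx9: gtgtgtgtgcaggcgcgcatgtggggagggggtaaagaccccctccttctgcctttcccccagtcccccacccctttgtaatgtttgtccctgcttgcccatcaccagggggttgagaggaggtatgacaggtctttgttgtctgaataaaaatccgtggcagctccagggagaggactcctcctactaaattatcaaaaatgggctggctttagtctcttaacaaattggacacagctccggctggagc
Capitals were kept for matches to GTGGGAG, a core of the WT1 element, or GCGGGGG, from the GC-rich element shared with EGR factors, on either strand. None of the 3 sequences held a match, so no base is in capitals. Of 32851 promoter stretches of the same length, 8.25% held GTGGGAG and 9.63% held GCGGGGG. The lack of a match says only that these letters are not in these 250 bases.

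The peaks could not be assigned to promoters or exons, because no annotation of the mm9 build was used. In the RefSeq gene order of GRCm38 the protein-coding neighbours were Pdzd8 and Rab11fip2 for Emx2, Nek7 and 2310009B15Rik for Lhx9, Enpp7 and Cbx8 for Cbx2, and Neil2 and Blk for Gata4. For Nr5a1 they were Psmb7 and Nr6a1, for Sox9 Gm11677 and Slc39a11, and for Amhr2 Sp1 and Prr13. A peak in a window can therefore belong to a neighbour of the gene that names it.

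WT1 peaks were found in all 7 windows, and 6 of the 7 held at least 1 site seen in all 4 libraries. Peaks that shared at least 1 bp were merged into regions, which gave 217 regions in the windows. A peak from both M15 replicates was present in 13 regions: 4 at Gata4, 2 each at Emx2, Cbx2, Sox9 and Amhr2, 1 at Nr5a1 and 0 at Lhx9. They made up 5.99% of the regions in the windows, against 1.25% of 455287 regions in the genome. Each of the 13 also held a peak of both KTS-minus replicates, where 93.7% of reproducible M15 regions did so over the genome, so 5.99% of the regions were found in all 4 libraries, against 1.17%. Among tiles of the genome cut to the width of the windows, a region with both M15 replicates was present in 15.2% of tiles of 100 kb, 16.2% at 110 kb, 17% at 120 kb, 17.9% at 130 kb and 20.3% at 160 kb. For regions with all 4 libraries these shares were 14.3%, 15.3%, 16.1%, 17% and 19.3%. Tiles without a peak in any library were left out, and tiles were not matched for gene content.

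The number of shared sites was set by M15 replicate 1, the shortest list. All 13 of its peaks in the windows were overlapped directly by a peak of each other library, against 95.5% of its whole list for M15 replicate 2, 93.6% for KTS-minus replicate 1 and 93.9% for KTS-minus replicate 2. Without M15 replicate 1, M15 replicate 2 alone gave 58 regions, of which 30 held a peak of both KTS-minus libraries. In that case all 7 loci held a region found in each of the remaining libraries, with 11 at Gata4, 5 each at Emx2, Cbx2 and Amhr2, 2 at Nr5a1 and 1 each at Sox9 and Lhx9. Shares over the genome and its tiles were not taken without M15 replicate 1. These counts therefore cannot be called particular to the windows. Of the 63 peaks of M15 replicate 2, 40 were met by KTS-minus replicate 1 and 41 by KTS-minus replicate 2, against 67.3% and 51.2% of its whole list.

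**Figure D1:**
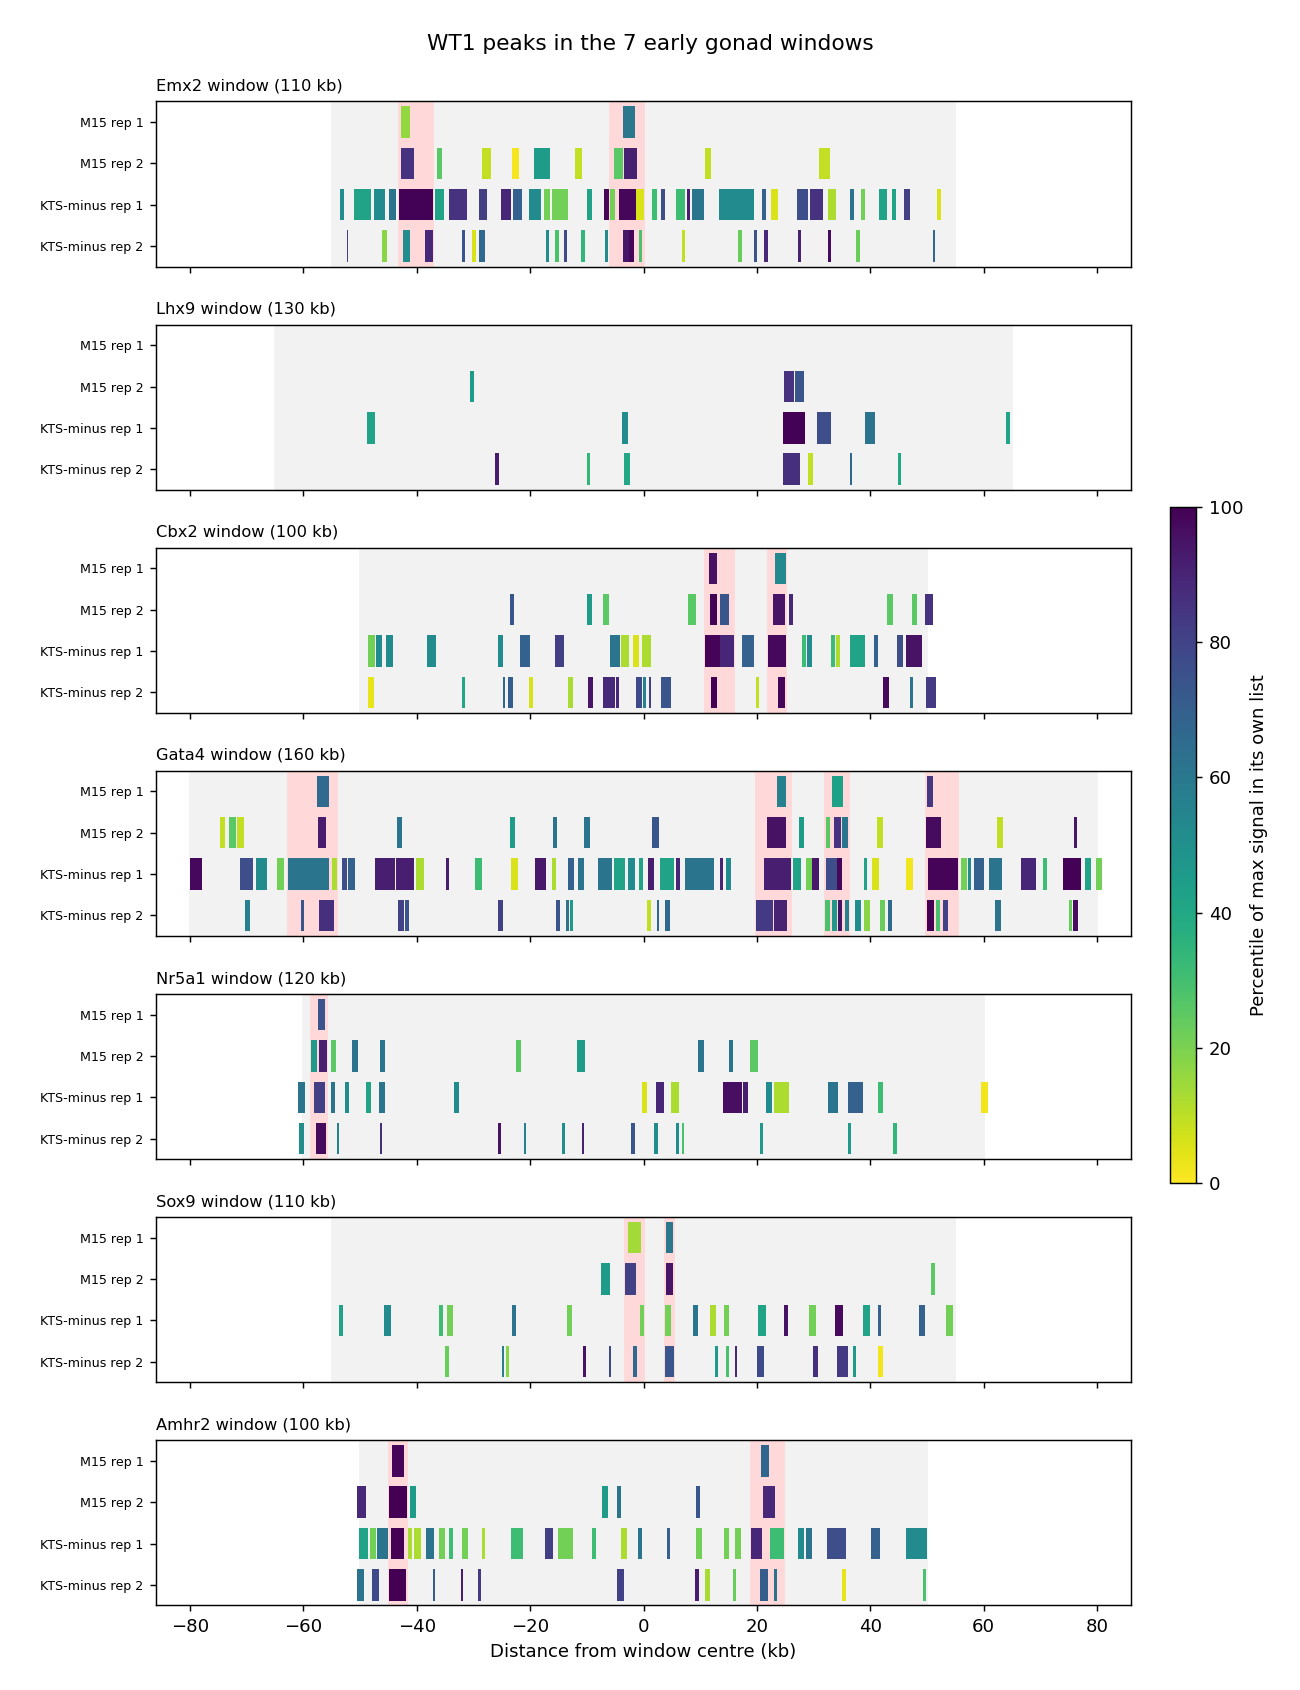
Peaks of the 4 libraries (rows) in each window, with the distance from the window centre in kb on the x axis, grey marking the window, pink marking the 13 regions found in all 4 libraries and colour giving the percentile of max signal in the peak's own list. M15 replicate 1 had 13 peaks, each inside a pink region, and the Lhx9 window had no pink region.

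More regions were seen in both KTS-minus replicates than in both M15 replicates, and most regions were seen in 1 library. Both KTS-minus replicates had a peak in 64 regions (29.5%), against 18.3% over the genome. With each list held to its 6440 strongest peaks the direction turned, with 10 regions in both M15 replicates and 5 in both KTS-minus replicates. The matching counts over the genome were not taken, so this turn cannot be called particular to the windows. Of the 64 regions, 33 held no M15 peak, where 73.7% of reproducible KTS-minus regions over the genome held none. Of the 217 regions, 140 (64.5%) were seen in 1 library, against 78.3% over the genome. Among the 121 peaks of KTS-minus replicate 2, 79 were overlapped by replicate 1, against 42.6% of its whole list. Among the 176 peaks of replicate 1, 67 were overlapped by replicate 2, against 28.8%. With KTS-minus replicate 1 or 2 left out, the remaining list alone gave 115 or 169 regions in place of 64.

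Peak density in the windows followed the chromosome in part, so each locus was read against tiles of its own width over the genome and on its own chromosome. The percentile of a locus is the share of tiles with fewer peaks, with ties at mid-rank. In M15 replicate 2 the 7 windows held 10 peaks at Emx2, 3 at Lhx9, 11 at Cbx2, 18 at Gata4, 10 at Nr5a1, 4 at Sox9 and 7 at Amhr2, and the median tile of the genome held 1, or 2 at the width of the Gata4 window. Gata4 stood highest on its own chromosome: its 4, 18, 47 and 28 peaks in M15 replicates 1 and 2 and KTS-minus replicates 1 and 2 lay at percentiles 99.3, 99.8, 99.6 and 99.9 of 761 tiles of chromosome 14. On chromosome 11 the 2 Sox9 peaks in M15 replicate 1 lay at percentile 87.3 of 1080 tiles. The 4, 19 and 15 Sox9 peaks in M15 replicate 2 and KTS-minus replicates 1 and 2 lay below the middle of these tiles, at percentiles 46.3, 46.1 and 36.5. Cbx2, on the same chromosome, lay at percentiles 88.4, 86.04, 69.6 and 78.0 of 1189 tiles in the 4 libraries.

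The high KTS-minus counts at Emx2 and Amhr2 went with dense chromosomes. Emx2 held 35 peaks in KTS-minus replicate 1, at percentile 98.7 of all tiles and 91.2 of the tiles of chromosome 19, where the median tile held 28. In KTS-minus replicate 2 it held 23 peaks, at percentile 92.96 of all tiles and 62.3 of those on chromosome 19. Amhr2 held 28 peaks in KTS-minus replicate 1, at percentiles 94.4 and 80.1 of all tiles and of chromosome 15. Its 14 peaks in replicate 2 lay at 77.4 and 23.0, where the median tile of chromosome 15 held 17. The part that DNA copy number plays in these counts was not tested.

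**Figure D2:**
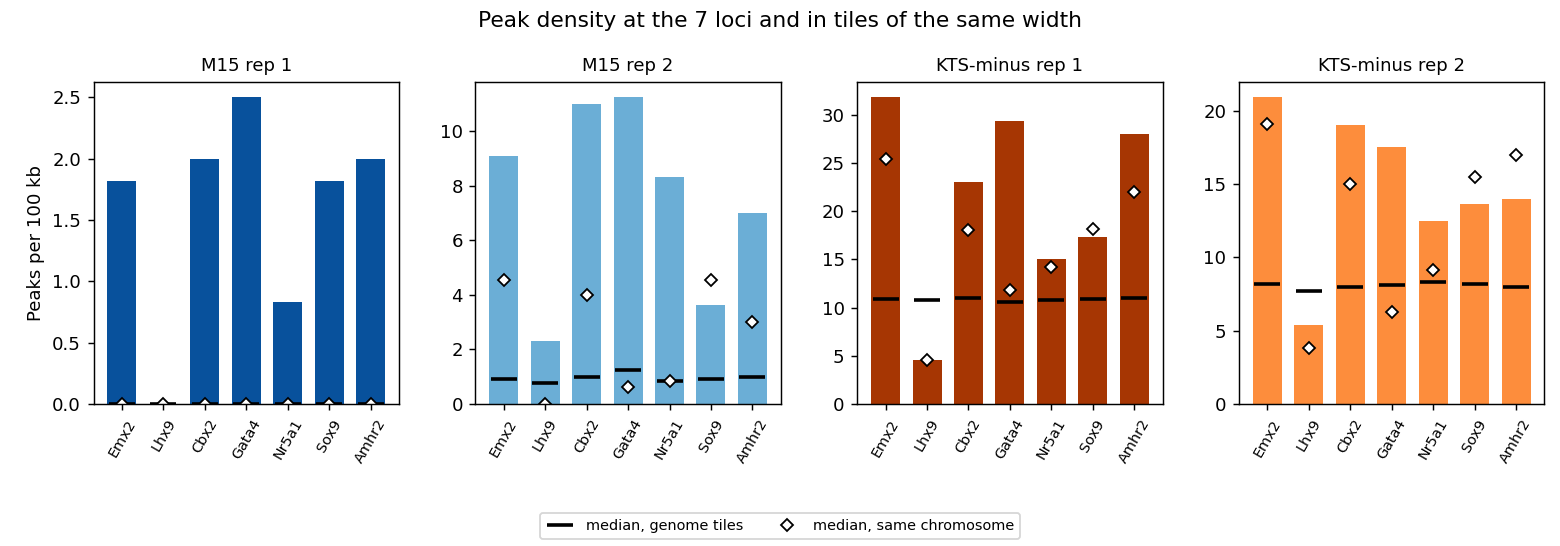
Peaks per 100 kb at each locus (bars, 1 panel per library, with its own y axis from 0), with the median of genome tiles (black line) and of tiles on the same chromosome (diamond). Gata4 exceeded both medians in all 4 libraries, while Lhx9 lay below the genome median in both KTS-minus libraries.

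Signal was compared by rank inside each list, because coverage in 1 library cannot be set against that of another. SEACR gives each peak a max signal, its highest coverage, and the percentile used here is the share of the list's peaks with a lower max signal, with ties at mid-rank. The lead region of a locus is the one found in most libraries and, among those, with the highest mean percentile. The 13 regions found in all 4 libraries had a median mean percentile of 83.6, against 80.6 for the 5331 such regions in the genome. By library their medians were 60.5 against 54.96 in M15 replicate 1, 92.7 against 93.9 in M15 replicate 2, 97.8 against 95.2 in KTS-minus replicate 1 and 95.1 against 95.8 in KTS-minus replicate 2. As a group these regions therefore ranked near other regions found in all 4 libraries, and the loci differed among themselves. A percentile also depends on the length of its list, and a region found in all 4 libraries sat lower in the 6440 peaks of M15 replicate 1 than in the longer lists. A percentile that is lower in M15 than in KTS-minus need not be a lower place in the order of peaks, and ranks are given beside the percentiles of the lead regions. A rank in turn can reach a larger number in a longer list. How often ranks or percentiles overlapped between the lines was not counted over the 5331 regions. Overlap, or its lack, at a locus therefore only describes the values printed there.

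Emx2, a homeobox gene needed for the urogenital system, had 2 sites in all 4 libraries. Its lead region, chr19:59529130-59535145, starts 49.1 kb into the window and spans 6016 bp. Max signal there was 40 in M15 replicate 1, 13 in M15 replicate 2, 26 in KTS-minus replicate 1 and 45 in KTS-minus replicate 2. Its percentile was 60.5 and 91.1 in the M15 libraries (mean 75.8 ± 21.6, SD, n = 2) and 98.3 and 98.5 in the KTS-minus libraries (mean 98.4 ± 0.185, SD, n = 2). The ranks were 2492 and 4966 for M15, then 5050 and 3606 for KTS-minus, and overlapped between the lines, while the percentiles did not. The other site, chr19:59491853-59497925, reached 21 and 11 in the M15 pair, with 30 and 31 in the KTS-minus pair. Its percentiles were 16.1 and 85.6 in the M15 pair, then 99.2 and 88.5 in the KTS-minus pair, and its KTS-minus replicate 1 peak was 6070 bp long. The 31 of KTS-minus replicate 2 came from its peak chr19:59496518-59497925, which met neither M15 peak. The KTS-minus replicate 2 peak that met both M15 peaks reached 21, at percentile 51.5.

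The Emx2 window also held the most sites seen in both KTS-minus libraries and in neither M15 library, 8 in all. These were 61.5% of its 13 regions with both KTS-minus libraries, against 77.8% of 9 such regions at Sox9 and the 73.7% over the genome. By mean percentile the strongest of these, chr19:59561998-59564018, reached 16 and 32 in KTS-minus replicates 1 and 2, at percentiles 76.2 and 90.4. A second wide KTS-minus replicate 1 peak, chr19:59548336-59554426, was 6091 bp long with a max signal of 13 at percentile 52.2. Peaks covered 55.2% of the Emx2 window in KTS-minus replicate 1 and 14.5% in KTS-minus replicate 2, against 3.34% and 15.4% in M15 replicates 1 and 2. Coverage thus differed between the replicates of each line by more than 3-fold.

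Lhx9, a LIM homeobox gene without which no gonad forms, held the fewest regions, 12 of the 217. It held 0 and 3 peaks in M15 replicates 1 and 2 and 6 and 7 in KTS-minus replicates 1 and 2. The 3 peaks of M15 replicate 2 lay at percentile 70.3 of all tiles and 94.3 of the 1477 tiles of chromosome 1. The KTS-minus counts lay at percentiles 22.5 and 32.7 of all tiles, and at 49.8 and 75.6 of those on chromosome 1. Its lead region, chr1:140759660-140763411, was the one site shared by 3 libraries. Max signal there was 11 in M15 replicate 2, 32 in KTS-minus replicate 1 and 30 in KTS-minus replicate 2, at percentiles 85.6, 99.5 and 86.2. This region held 86.9% of the summed peak signal of the window in M15 replicate 2, 58.7% in KTS-minus replicate 1 and 46.6% in KTS-minus replicate 2. The window held 1 region with both KTS-minus libraries and no M15 peak, chr1:140731243-140732605, with a max signal of 13 and 19.

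Cbx2 encodes a Polycomb subunit that acts in gonadal sex development. Of its 2 shared sites, the lead region was among the strongest of the 7 loci. The lead region, chr11:118900799-118905899, peaked at a max signal of 95 in M15 replicate 1, 35 in M15 replicate 2, 28 in KTS-minus replicate 1 and 78 in KTS-minus replicate 2. These values ranked 302 and 345 in the lists of M15, then 3321 and 416 in those of the edited line. The mean percentile was 97.4 ± 2.90 (SD, n = 2) in M15, compared with 99.4 ± 0.677 (SD, n = 2) in KTS-minus. The percentile ranges overlapped between the lines, while the ranks, from lists that differ in length, did not. The site ranked first in its window in each library. The second site, chr11:118912049-118915204, reached 36 and 16 in the M15 pair, with 25 and 47 in the KTS-minus pair, at percentiles 52.9, 94.9, 97.8 and 98.8. Of 9 Cbx2 regions with both KTS-minus libraries, 4 (44.4%) held no M15 peak, against 73.7% over the genome. By mean percentile the strongest of the 4 was chr11:118864350-118865649, at 13 and 24 in KTS-minus replicates 1 and 2.

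Gata4, a zinc-finger factor needed for the first thickening of the gonadal ridge, had the most shared sites. The 4 regions start 17.2, 99.8, 112.0 and 129.8 kb into the window. The lead region, chr14:63889814-63895429, peaked at a max signal of 60 in M15 replicate 1, 20 in M15 replicate 2, 29 in KTS-minus replicate 1 and 63 in KTS-minus replicate 2. Its mean percentile was 90.6 ± 9.19 (SD, n = 2) in M15, compared with 99.4 ± 0.378 (SD, n = 2) in KTS-minus. Its ranks were 1043 and 1695 in the M15 lists, with 2673 and 927 in the KTS-minus lists. These ranks overlapped between the lines, while the percentiles did not. Ranked by total signal in place of max signal, the mean over the 4 libraries fell from 95.0 to 85.7, and the region at 99.8 kb took first place. In the lead region the highest signal of KTS-minus replicate 1 lay at chr14:63893110-63893123, outside both M15 peaks. Its midpoint was 2564 bp from that of KTS-minus replicate 2, so the KTS-minus mean joins 2 positions.

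The other 3 Gata4 sites had a lower max signal than the lead region in each library. The region chr14:63777206-63785921 reached 43 in M15 replicate 1, 14 in M15 replicate 2, 14 in KTS-minus replicate 1 and 30 in KTS-minus replicate 2. It contained the widest member peak, of 7242 bp in KTS-minus replicate 1, at percentile 61.5. The region chr14:63859830-63865941 reached 38 and 17 in the M15 pair, with 20 and 32 in the KTS-minus pair. The region chr14:63872019-63876254 reached 32 and 11 in the M15 pair, with 26 and 36 in the KTS-minus pair. A further site, chr14:63914092-63917252, was picked out after its values were seen: it had no peak in M15 replicate 1, but reached 15, 31 and 39 in M15 replicate 2 and KTS-minus replicates 1 and 2, at percentiles 93.9, 99.4 and 96.8. Of 14 Gata4 regions with both KTS-minus libraries, 3 (21.4%) held no M15 peak, against 73.7% over the genome. By mean percentile the strongest of the 3 was chr14:63826247-63827670, with 15 and 23 in KTS-minus replicates 1 and 2.

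Nr5a1, which encodes the nuclear receptor SF-1, had 1 shared site, and it lay at the edge of the window. The region chr2:38501392-38504153 starts 1.39 kb from the window start, and it cannot be told apart here from a site of a neighbouring gene. Max signal was 48 in M15 replicate 1, 13 in M15 replicate 2, 17 in KTS-minus replicate 1 and 41 in KTS-minus replicate 2, at percentiles 73.5, 91.1, 81.6 and 97.6. The means of 82.3 ± 12.5 in M15 and 89.6 ± 11.3 in KTS-minus (SD, n = 2 each) differed by less than either SD. The ranks were 1711 and 5383 for M15, then 51228 and 5664 for KTS-minus, whose lists are longer. These ranks did not overlap between the lines, while the percentile ranges did. It was the only peak of M15 replicate 1 in the window, and in KTS-minus replicate 1 it took place 4 in the order of max signal. With each window shortened by 20 kb on both sides, Nr5a1 had 0 regions in all 4 libraries. Of 6 Nr5a1 regions with both KTS-minus libraries, 4 (66.7%) held no M15 peak, against 73.7% over the genome. By mean percentile the strongest of the 4 was chr2:38561842-38563702, with 19 and 21 in KTS-minus replicates 1 and 2.

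Sox9, the transcription factor that sets Sertoli cell fate, was the locus whose lead region ranked lowest in the edited line. Its lead region, chr11:112648708-112650307, reached 40 in M15 replicate 1 and 16 in M15 replicate 2, the highest value of the window in each. In KTS-minus replicates 1 and 2 the max signal was 10 and 26, which took places 13 and 7 in the window. The percentiles were 60.5 and 94.9 in M15 (mean 77.7 ± 24.3, SD, n = 2) and 21.1 and 74.0 in KTS-minus (mean 47.6 ± 37.4, SD, n = 2). The percentile ranges overlapped, and the means differed by less than the SD of the KTS-minus pair. The ranks were 2540 and 3244 for M15, then 238176 and 59049 for KTS-minus. These ranks did not overlap between the lines, whose lists differ in length. The second shared site, chr11:112641684-112645025, reached 20 and 10 in the M15 pair, with 10 and 24 in the KTS-minus pair. There the KTS-minus replicate 1 peak met the peak of M15 replicate 1 but not that of M15 replicate 2. The 2 KTS-minus peaks did not overlap each other, and the M15 replicate 1 peak joined them into 1 region.

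Both shared Sox9 sites fell below the median of KTS-minus replicate 1, as did 4.99% of the 5331 regions found in all 4 libraries. None of the other 11 shared sites did, and none of the 13 fell below the median of KTS-minus replicate 2, against 8.35% over the genome. Among Sox9 regions with both KTS-minus libraries, the one with the highest mean percentile in them had no M15 peak: chr11:112678768-112680998 reached 24 and 29 in KTS-minus replicates 1 and 2, at percentiles 97.1 and 83.5. In KTS-minus replicate 2 the neighbouring region chr11:112674153-112675798 reached 30, above that 29. The mean percentile of 90.3 was the highest of the 33 regions with both KTS-minus libraries and no M15 peak in the 7 windows. Over the 33 regions the median was 49.2, against 49.6 over 61442 such regions in the genome.

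Amhr2, the receptor gene, held the strongest site of the 7 loci, near the start of its window. The region chr15:102235039-102238215 peaked at a max signal of 132 in M15 replicate 1, 47 in M15 replicate 2, 57 in KTS-minus replicate 1 and 139 in KTS-minus replicate 2. It ranked 92 of 6440 and 93 of 60925 in M15 replicates 1 and 2, then 161 of 310999 and 49 of 244428 for the edited line. The ranks overlapped between the lines, while the percentiles did not. The mean percentile was 99.2 ± 0.894 in M15 and 99.96 ± 0.0225 in KTS-minus (SD, n = 2 each), and 98.9% of the regions found in all 4 libraries had a lower mean over the 4 libraries. The site held 84.1% and 55.2% of the summed peak signal of the window in M15 and 16.3% and 49.5% in KTS-minus. It starts 5.04 kb from the window start and was lost when windows were shortened by 20 kb, so its link to Amhr2 rather than to a neighbour was not tested.

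The second Amhr2 site, chr15:102299023-102304720, starts 69.0 kb into the window. It reached 44 in M15 replicate 1, 12 in M15 replicate 2, 19 in KTS-minus replicate 1 and 25 in KTS-minus replicate 2, at percentiles 67.4, 88.8, 89.2 and 70.3. The 19 of KTS-minus replicate 1 lay at base 102299402, outside both M15 peaks. The KTS-minus replicate 1 peak that met the M15 replicate 2 peak, chr15:102302345-102304720, reached 11, at percentile 31.3. Of 11 Amhr2 regions with both KTS-minus libraries, 6 (54.5%) held no M15 peak, against 73.7% over the genome. By mean percentile the strongest of the 6 was chr15:102231770-102234869, with 14 and 27 in KTS-minus replicates 1 and 2.

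**Figure D3:**
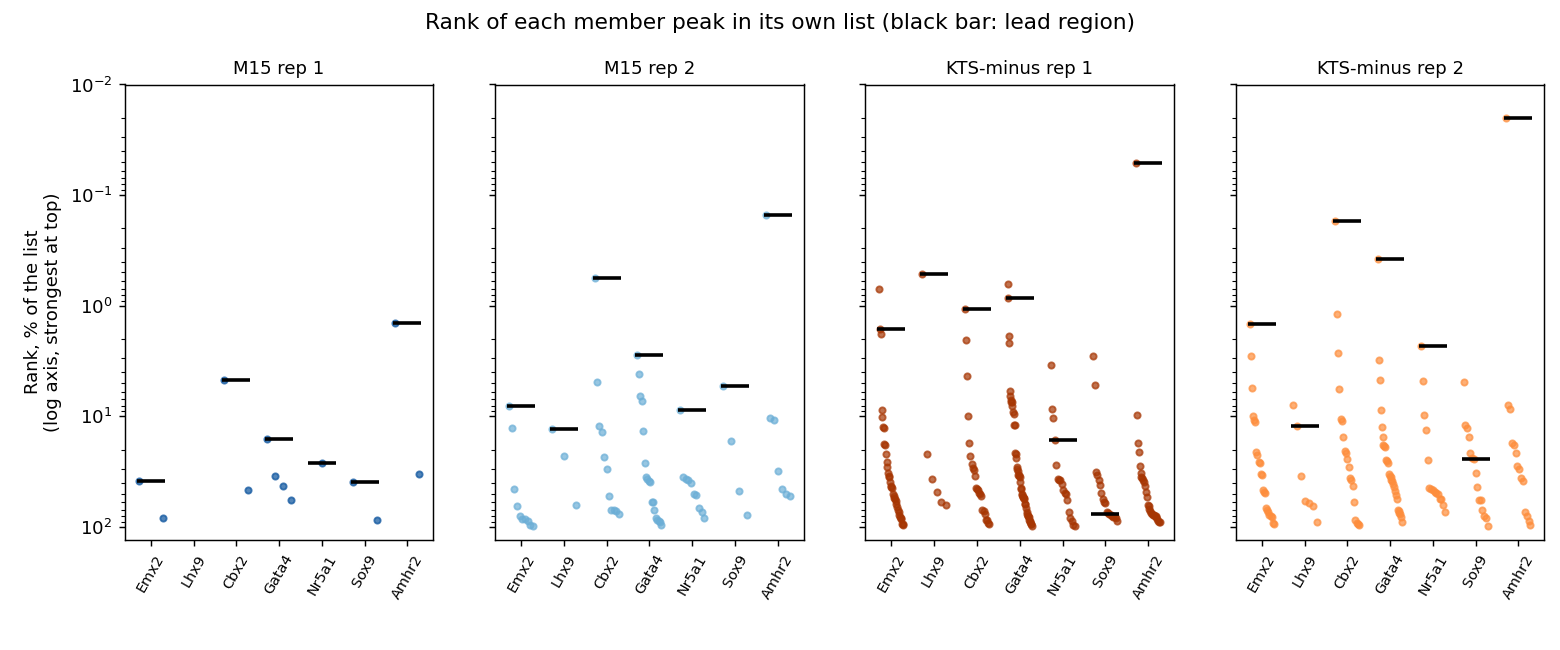
Rank of each member peak by max signal as a percentage of its list (log axis, strongest at the top), by locus, with 1 panel per library and a black bar at the lead region. The Amhr2 lead region was the highest point in all 4 libraries, and the Sox9 bar fell among the weaker peaks in KTS-minus replicate 1.

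Set side by side, the lead regions of the 6 loci with a peak in all 4 libraries fell in the order Amhr2, Cbx2, Gata4, Emx2, Nr5a1 and Sox9 by mean percentile. The means were 99.6 ± 0.675, 98.4 ± 2.06, 95.0 ± 7.32, 87.1 ± 18.0, 85.9 ± 10.6 and 62.6 ± 31.1 (SD, n = 4 libraries). Each mean lay within 1 SD of its neighbour in this order, taking the larger SD of the pair, and the order pools libraries of both lines. Lhx9 had no peak in M15 replicate 1, so its mean of 90.4 ± 7.81 (SD, n = 3) can be set only against the other 3 libraries. Without M15 replicate 1 the means were 99.9 at Amhr2, 99.4 at Cbx2, 98.6 at Gata4, 95.9 at Emx2, 90.1 at Nr5a1 and 63.3 at Sox9, which put Lhx9 between Emx2 and Nr5a1. Read against the 6440 strongest peaks of each list, 5 of the 13 shared regions were present in all 4 lists, against 24% of such regions over the genome: both Cbx2 sites and the lead regions of Gata4, Emx2 and Amhr2. By library, 10 were present in M15 replicate 2, 7 in KTS-minus replicate 1 and 6 in KTS-minus replicate 2, against 71.5%, 37.8% and 42.8%.

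**Figure D4:**
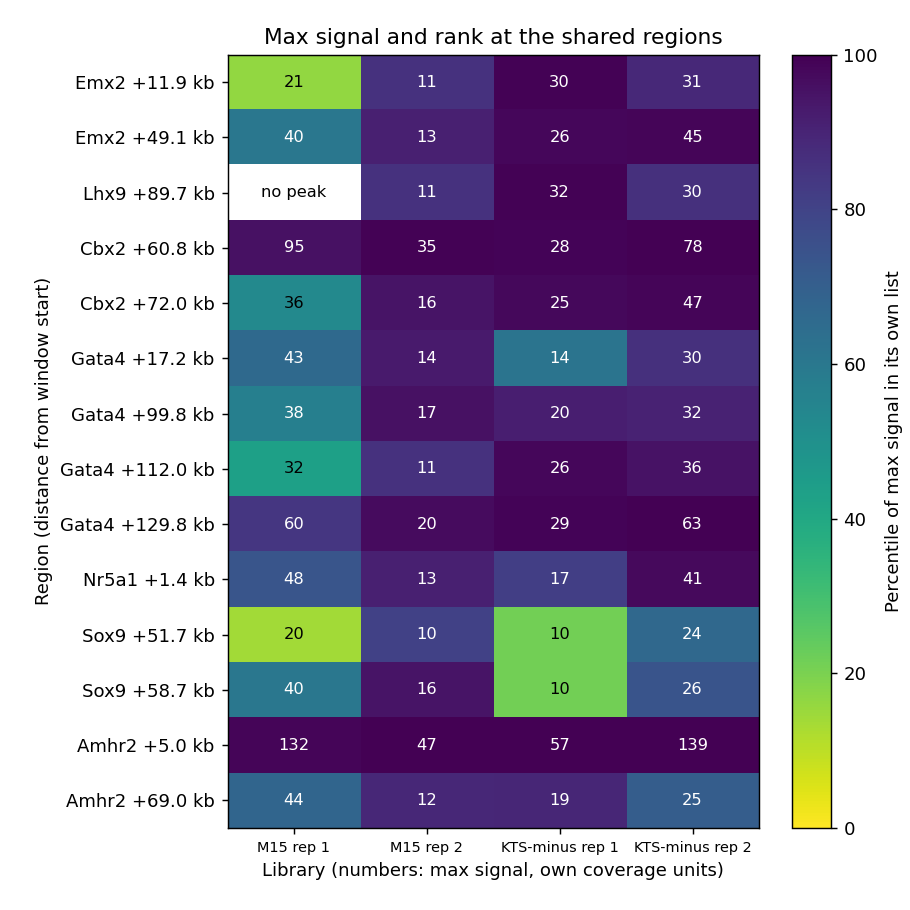
Max signal (numbers, in each library's own coverage units) and its percentile in the list (colour) at the 13 regions found in all 4 libraries and at the Lhx9 lead region, which had no peak in M15 replicate 1. The Amhr2 region at 5.0 kb and the Cbx2 region at 60.8 kb were dark in all 4 columns, and both Sox9 regions were light in KTS-minus replicate 1.

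A shared region does not mean that the signal peaked at the same base. SEACR also gives the stretch of highest signal inside a peak. The midpoints of these stretches were compared at the 13 regions, taking the strongest peak of each library where it had more than 1. The M15 replicates lay a median of 47 bp apart, against 76 bp over the genome, and within 100 bp of each other at 7 of the 13 sites, against 57.2%. The KTS-minus replicates lay a median of 778.5 bp apart, against 294.5 bp, and within 100 bp at 3 sites, against 27.1%. These regions were wider than others, with a median of 5101 bp against 3722 bp, and the part of this width in the distances was not tested.

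Stretches of all 4 libraries overlapped at 1 of the 13 regions, against 0.75% over the genome. That was the Gata4 site chr14:63872019-63876254, where all 4 stretches began at base 63874573 and their midpoints spanned 16 bp. At the Cbx2 lead region the 4 midpoints spanned 74.5 bp, and at the Amhr2 lead region 131 bp. At the other extreme, the span was 4828 bp at the Emx2 site chr19:59491853-59497925 and 4581 bp at the Gata4 site chr14:63777206-63785921. At the Gata4 site the M15 midpoints lay within 45.5 bp of each other, and both KTS-minus midpoints lay more than 1.5 kb away from them. At the Emx2 site the KTS-minus replicate 1 midpoint was also more than 1.5 kb away. KTS-minus replicate 2 had a second, weaker peak in that Emx2 region, chr19:59492592-59493886, whose stretch began at base 59492728, as did both M15 stretches, so its distance there depends on which of its peaks is taken.

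**Figure D5:**
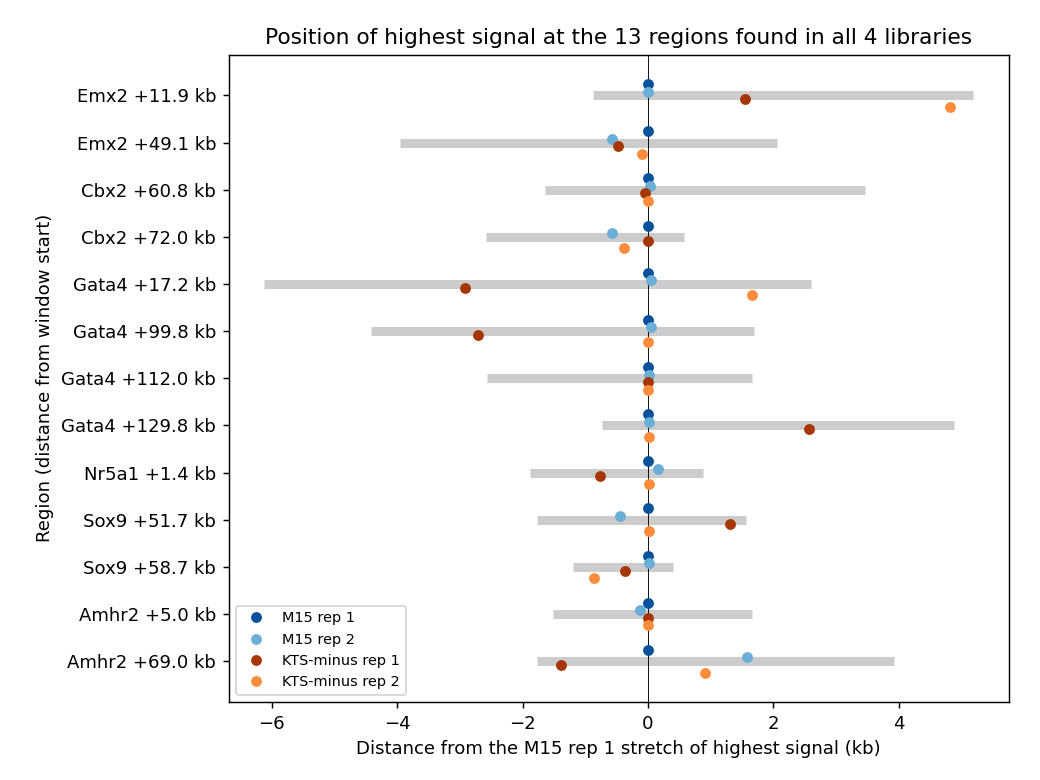
Midpoint of the stretch of highest signal in the strongest peak of each library, as the distance in kb from that of M15 replicate 1, at the 13 regions found in all 4 libraries (grey bars give the merged region). Points of the 4 libraries coincide at the Gata4 site at 112.0 kb and at the Cbx2 site at 60.8 kb, and KTS-minus points stand apart at the Emx2 site at 11.9 kb and the Gata4 site at 17.2 kb. A weaker KTS-minus replicate 2 peak at that Emx2 site, not drawn, has its stretch at the M15 position.

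Member peaks of 5 kb or more came from 1 library. KTS-minus replicate 1 had 5 of them, 3 at Gata4 and 2 at Emx2, among its 176, against 1.27% of its whole list. None of the peaks of the other 3 libraries in the windows reached that width. In the whole lists 1.85% of peaks did so in M15 replicate 1, 0.492% in M15 replicate 2 and 0.248% in KTS-minus replicate 2. Besides those already given, they were chr14:63847362-63852493 (5132 bp, max signal 14) and the Gata4 lead peak of 5288 bp (max signal 29). Among the 6440 strongest peaks of each list were 11 of the 63 member peaks of M15 replicate 2, 10 of 176 in KTS-minus replicate 1 and 6 of 121 in KTS-minus replicate 2, against 10.6%, 2.07% and 2.63% of the whole lists.

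Taking all member peaks, the median percentile of max signal was 60.5 against 50.5 over the list in M15 replicate 1, 61.6 against 45.2 in M15 replicate 2, 52.2 against 52.2 in KTS-minus replicate 1 and 66.2 against 51.5 in KTS-minus replicate 2.

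The smallest p that an exact permutation test can give for 2 libraries per line is 0.333, so no difference between the lines was tested at any locus.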

How the data were processed

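WT1 CUT&RUN peak lists of 2 M15 and 2 KTS-minus libraries were used. The submitters' processing notes name SEACR 1.3, a peak caller, and Bowtie2 2.2.6, an aligner, with the build mm9. They also list FastQC 0.11.8, SAMtools 1.3, Picard 2.5.0 and bedtools 2.23.0. The authors deposited 1 list per library, not pooled, with total signal and max signal per peak as whole-number coverage. Not given in the sources used here were scaling between libraries, the control used in calling, its threshold and the use of the yeast spike-in DNA. Read depth is unknown. Signal was therefore only ranked inside a list. Coordinates are mm9, counted from 1.

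Peaks overlapping the windows by at least 1 bp were taken, and peaks of the 4 lists sharing at least 1 bp were merged into regions. Tiles of each window's width were laid from the start of every chromosome. Equal-length lists hold the 6440 peaks of highest max signal. Named regions were those in both M15 replicates, the lead region and peaks of 5 kb or more. The strongest region with both KTS-minus libraries and no M15 peak was also named at each locus. Alternatives changed the overlap, the list length, the windows and the libraries used. The members and lists were chosen with earlier results of these data known. Merging and ranking were tested on simulated lists of sparse sites, which checks the code only. Python 3.11.15, numpy 2.4.6, pandas 2.3.3 and matplotlib 3.10.9 were used.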

Additional observations from a re-analysis of the deposited data

How the results depend on the processing

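The counts depended on how a shared site was defined, and the finding of a shared site at most loci depended on it less. Regions in both M15 replicates numbered 13, and 5 when only stretches of highest signal were overlapped, 8 with the 50% of peaks of highest total signal and 20 with windows extended by 50 kb. Of these, 1, 8 and 20 held a peak of both KTS-minus libraries, as did 7 with a 50% reciprocal overlap and 5 at equal list length. Regions in both KTS-minus replicates numbered 64, and 23 with a 50% reciprocal overlap, 7 by stretches, 36 with the 50% of peaks, 5 at equal list length and 101 in extended windows. Leaving out each library in turn gave 13 to 58, 13 to 30 and 63 to 169 regions for M15, M15 with KTS-minus, and KTS-minus. The number of loci with a region in all libraries used was 6, it was 1 by stretches alone, and it lay between 4 and 7 under every other alternative run. Ranked by total signal, the lead percentile was 85.7 at Gata4 and 95.6 at Cbx2, each more than 1 SD between libraries below the main value. The cause of these shifts was not tested, except that stretches are shorter than peaks and extended windows are longer. Leaving out single libraries for the lead percentiles was added after seeing the data. No paired analysis was possible because no result comes from a test and the labels do not say that replicate numbers mark a shared culture or day. Depth is unknown, so a missing peak does not show a missing site.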
